A study of Mus musculus with 8 samples.

Results

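The 9 genes described here encode proteins with which endothelium acts on blood clotting. On the procoagulant side are von Willebrand factor (Vwf), coagulation factor VIII (F8) and tissue factor (F3). On the anticoagulant side are protein S (Pros1), thrombomodulin (Thbd), the endothelial protein C receptor (Procr) and tissue factor pathway inhibitor (Tfpi). Tissue plasminogen activator (Plat) serves fibrin breakdown, and F2r encodes the thrombin receptor PAR1. They were taken by symbol through their Ensembl identifiers, and all 9 had a row among the 25700 genes of the count tables. The list was chosen by function with the KO against WT fold changes of these genes in view. The differences of its members between genotypes are therefore given as a description. Where a member is said to be called in a fit over all genes, that call is not an independent test of it. Messenger RNA was counted in brain endothelial cells sorted by flow cytometry, without culture, from C57BL/6 pups at postnatal day 6. KO pups carried an endothelial deletion of GLUT1, the glucose transporter of the blood-brain barrier (n = 4), and WT pups were wild-type controls described as littermates (n = 4). The labels do not say which Cre line made the deletion, and each library is labelled as 1 pup.

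Endothelium normally keeps flowing blood fluid while holding the means to seal a wound. Von Willebrand factor is stored in Weibel-Palade bodies, endothelial storage granules, and after release it tethers platelets and carries factor VIII. On the luminal surface thrombomodulin turns thrombin into an activator of protein C, which the endothelial protein C receptor presents to it. Protein S is the cofactor of activated protein C, and tissue factor pathway inhibitor blocks the start of clotting by tissue factor. In the adult brain, von Willebrand factor is known to be most abundant in veins and larger vessels, and thrombomodulin to be sparse in capillaries.

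Library totals ran from 20858070 to 40833036 counts in KO pups and from 25886455 to 114007737 counts in WT pups. The target of the deletion was lower in every KO pup. Slc2a1, which encodes GLUT1, measured 1386, 1511, 1528 and 1602 CPM (counts per 1000000 counts of the library, with TMM scaling) in KO pups 1 to 4, against 2238, 3420, 2792 and 3726 CPM in WT pups 1, 2, 3 and 5. KO pup 1 stood apart with 13624 detected genes, where every other pup had 15756 to 17082. According to the titles, WT pup 5 was caged with the KO pups and the other WT pups elsewhere. The labels inside the deposited tables put WT pup 3 in that cage instead, so cage and genotype were nearly confounded. Summed CPM of 11 pan-endothelial markers was 15230 to 17210 in KO pups, against 16390 to 17220 in WT pups. The list was led by Cldn5, the tight junction protein claudin 5, which was lower in every KO pup though not called. Cldn5 averaged 2999 ± 106 CPM in KO and 3256 ± 38.9 CPM in WT (mean ± SD, n = 4 each). The median log2 fold change of the 11 was -0.01, with 7 below 0 and 0 called. Without overlap, 2 of the 11 were lower and 1 higher.

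Among the 9 genes, Vwf was lower and Pros1 higher in every KO pup than in any WT pup, by the widest margins, while the thrombin receptor and tissue plasminogen activator overlapped between the genotypes. In edgeR's quasi-likelihood fit over all 14154 tested genes (adjusted p under 0.05), 2 of the 9 were called, Vwf lower and Pros1 higher, where 0.389% of all tested genes were called, 0.113% lower and 0.276% higher. The groups did not overlap for 4 of the 9 (Vwf, Thbd and Tfpi lower, Pros1 higher), against 7.19% of all tested genes, 3.43% lower and 3.77% higher. Since the list was drawn up with this contrast known, these counts are not read as a property of hemostasis genes. The median log2 fold change was -0.23 over the 9 and 0.00175 over all tested genes. In such bulk libraries a smaller share of the cells that express a gene and less of its RNA per cell cannot be told apart. All 9 passed the filter on low counts, and none shares exon bases with another gene of the tables on either strand.

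**Figure D1:**
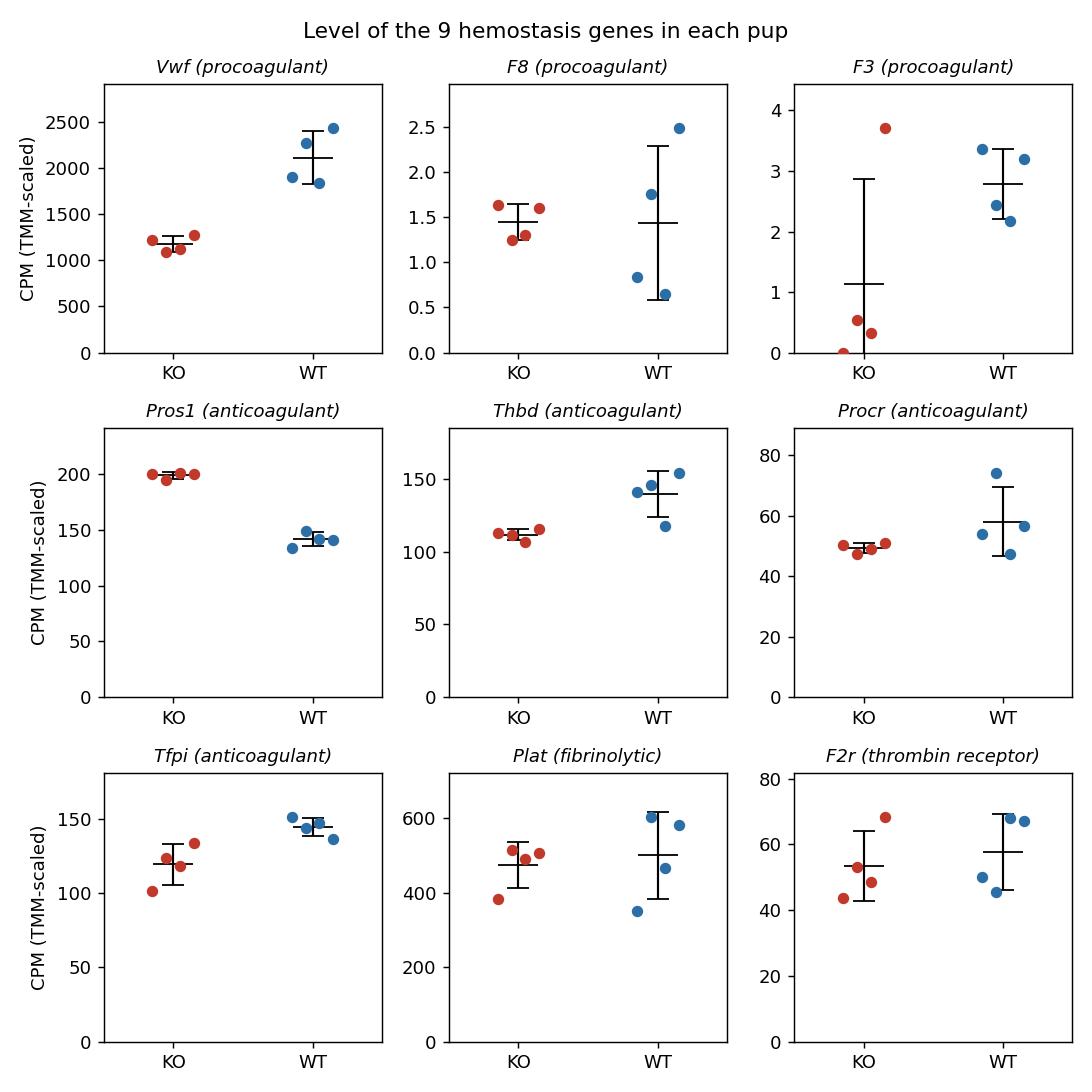
Level of each of the 9 genes in CPM (vertical axes, linear from 0, each panel with its own scale) in the 4 KO and the 4 WT pups; points are pups, horizontal bars the means and error bars the SD, and the part of an SD below 0 (F3 in KO) is not drawn. Vwf sits between 1085 and 1270 CPM in KO pups and between 1835 and 2426 CPM in WT pups, whereas Pros1 sits between 194 and 201 CPM in KO pups and between 134 and 149 CPM in WT pups.

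Vwf was the most abundant procoagulant transcript and had the largest fold difference of the 7 well-detected genes. The gene (ENSMUSG00000001930) lies on GRCm38 chromosome 6, 125546774 to 125686679, plus strand. It measured 1218, 1085, 1118 and 1270 CPM in KO pups 1 to 4, against 1904, 2273, 1835 and 2426 CPM in WT pups 1, 2, 3 and 5. The groups were 565 CPM apart at their nearest pups, KO pup 4 and WT pup 3. Means were 1173 ± 85.9 CPM in KO and 2110 ± 286 CPM in WT (mean ± SD, n = 4 each), which put KO at 55.6% of WT. The log2 fold change was -0.85 (SE 0.10, 95% interval -1.07 to -0.63). With a cage term the log2 fold change was -1.05 by the titles and -0.65 by the labels in the tables, and each of these rests on 1 WT pup. Under the labels in the tables Vwf was no longer called.

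The other procoagulant genes were close to the limit of detection. F8 (ENSMUSG00000031196; chromosome X, 75172715 to 75382615, minus strand), the cofactor that von Willebrand factor carries in plasma, had between 24 and 196 reads in a library. It measured 1.63, 1.24, 1.31 and 1.60 CPM in KO pups 1 to 4, against 0.835, 1.76, 0.651 and 2.48 CPM in WT pups 1, 2, 3 and 5. All KO values lay inside the range of the WT pups, and the log2 fold change was 0.02 with a wide 95% interval of -1.11 to 1.14. F3 (ENSMUSG00000028128; chromosome 3, 121723537 to 121735048, plus strand), the cell-surface starter of clotting, measured 0, 0.539, 0.327 and 3.70 CPM in KO pups 1 to 4, against 3.36, 2.44, 2.17 and 3.19 CPM in WT pups 1, 2, 3 and 5. KO pups 1 to 3 lay below every WT pup and KO pup 4 above all of them. The log2 fold change of -1.24 had a 95% interval of -3.27 to 0.80. Without KO pup 4 the log2 fold change was -3.24. A count of 0 allows up to 3 counts, which is 0.144 CPM in KO pup 1, counting error only.

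Markers of choroid plexus and ependyma, a list of 5 genes, had lower sums in every KO pup than in any WT pup. Their summed CPM was 88.2, 133, 17.7 and 307 in KO pups 1 to 4 and 449, 877, 366 and 1873 in WT pups 1, 2, 3 and 5, led by Ttr, the transthyretin gene of choroid plexus, at 121 ± 113 CPM in KO and 866 ± 675 CPM in WT (mean ± SD, n = 4 each). These sums were mostly Ttr, the only gene of the 5 without overlap. Of the 5, 4 had a log2 fold change below 0 (median -1.49), and 0 were called. KO pup 4 was the highest KO pup for the list and for F3, but also for the sums of astrocyte, mural, fibroblast, neuronal and erythrocyte markers. Its choroid plexus and ependyma sum (307 CPM) lay below that of every WT pup, while its F3 lay above all of them. Astrocytes are another known source of tissue factor, and the 7 astrocyte markers summed to 310 to 412 CPM in KO pups and 317 to 380 CPM in WT pups, led by Gja1 at 255 ± 32.5 CPM in KO and 299 ± 29.6 CPM in WT. Gja1 was the only astrocyte marker of the 7 with a log2 fold change below 0, and the median of the list was 1.03, with 0 called and 0 without overlap. The part of either cell type in the F3 values was not tested.

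Of the anticoagulant genes, Pros1 stood alone in being higher in KO, while Thbd, Tfpi and Procr had lower means there. Pros1 (ENSMUSG00000022912; chromosome 16, 62854307 to 62929346, plus strand) measured 200, 194, 201 and 200 CPM in KO pups 1 to 4, against 134, 149, 142 and 141 CPM in WT pups 1, 2, 3 and 5. The spread within a genotype was small, with coefficients of variation of 1.52% in KO and 4.35% in WT, and the groups were 45.6 CPM apart at their nearest pups. The mean was 141% of the WT mean (199 ± 3.01 CPM in KO, 141 ± 6.15 CPM in WT; mean ± SD, n = 4 each), and the log2 fold change was 0.49 (SE 0.06, 95% interval 0.35 to 0.63). It stayed between 0.47 and 0.51 under all 18 alternative settings, the cage terms included, though with either cage term, and among the pups that the titles put in 1 cage, Pros1 was no longer called. Macrophages also express protein S: the 10 microglia and macrophage markers had sums of 926, 1412, 2537 and 1790 CPM in KO pups 1 to 4 and of 1208, 885, 1238 and 1388 CPM in WT pups 1, 2, 3 and 5, led by Mrc1 at 683 ± 283 CPM in KO and 401 ± 63.5 CPM in WT. All 10 had a log2 fold change above 0, with a median of 0.23, and 0 were called. Their part in the Pros1 difference was not tested.

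Thrombomodulin and tissue factor pathway inhibitor differed in the opposite direction and by less. Thbd (ENSMUSG00000074743; chromosome 2, 148404466 to 148408188, minus strand) measured 113, 111, 107 and 116 CPM in KO pups 1 to 4, against 141, 146, 118 and 154 CPM in WT pups 1, 2, 3 and 5. The groups were 1.60 CPM apart at their nearest pups, KO pup 4 and WT pup 3, and the log2 fold change was -0.32 (SE 0.09, 95% interval -0.52 to -0.13). It was -0.07 with a cage term by the labels in the tables, which rests on WT pup 3, and -0.47 with the cage term by the titles. Tfpi (ENSMUSG00000027082; chromosome 2, 84432855 to 84476775, minus strand) measured 101, 124, 118 and 134 CPM in KO pups 1 to 4, against 151, 144, 147 and 136 CPM in WT pups 1, 2, 3 and 5. KO pup 1 was lowest and KO pup 4 came within 2.23 CPM of WT pup 5, and the log2 fold change was -0.28 (SE 0.09, 95% interval -0.47 to -0.08). Neither gene was called in the edgeR fit, which called 16 of all 14154 tested genes lower. DESeq2, which called 193 of them lower, called Thbd lower.

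Procr (ENSMUSG00000027611; chromosome 2, 155751117 to 155755471, plus strand), the receptor that hands protein C to thrombomodulin, measured 50.5, 47.2, 49.0 and 51.0 CPM in KO pups 1 to 4, against 54.0, 74.1, 47.2 and 56.6 CPM in WT pups 1, 2, 3 and 5. The KO pups lay close together near the low end of the WT range, and WT pup 2 was the highest. The log2 fold change was -0.23 (SE 0.13, 95% interval -0.51 to 0.04).

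Promoter sequence is shown for Pros1 and Tfpi, the anticoagulant genes that separated the genotypes in opposite directions and had an entry in the table of RefSeq promoters used here, which held 6 of the 9 genes. Each line gives the 250 bases before the RefSeq start of the gene (GRCm38.p6), with every match to the core motif of ETS transcription factors (GGAA, or TTCC on the opposite strand) in capitals. Pros1 is chr16:62854057-62854306 on the plus strand, and Tfpi is the outer of 2 listed starts, chr2:84476760-84477009 on the minus strand.
Pros1: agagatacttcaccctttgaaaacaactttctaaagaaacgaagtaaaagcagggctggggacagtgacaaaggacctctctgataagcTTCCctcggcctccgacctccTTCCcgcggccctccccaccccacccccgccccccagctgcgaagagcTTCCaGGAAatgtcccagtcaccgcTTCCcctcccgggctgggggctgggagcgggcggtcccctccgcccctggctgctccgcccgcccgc
Tfpi: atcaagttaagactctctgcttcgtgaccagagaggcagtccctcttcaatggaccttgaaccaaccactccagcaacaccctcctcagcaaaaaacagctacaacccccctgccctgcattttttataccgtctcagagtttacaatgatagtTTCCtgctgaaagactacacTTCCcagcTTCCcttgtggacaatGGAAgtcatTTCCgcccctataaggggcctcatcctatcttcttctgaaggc
Both windows held 5 matches to the ETS core, where 93.4% of the 32851 promoter windows of this length held at least 1 and the median was 3. The GC box GGGCGG, counted on both strands, was matched 5 times before Pros1 and 1 time before Tfpi, with at least 1 match in 32.7% of all windows. GATA was matched 2 times in each (53.6% of all windows held it), CCAAT was matched in neither (33.8%), and the GC content was 64.4% for Pros1 and 48.4% for Tfpi.

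The fibrinolytic and thrombin receptor genes overlapped widely between genotypes. Plat (ENSMUSG00000031538; chromosome 8, 22757727 to 22782844, plus strand), whose product turns plasminogen into plasmin, measured 383, 515, 491 and 507 CPM in KO pups 1 to 4, against 352, 603, 466 and 583 CPM in WT pups 1, 2, 3 and 5. The lowest and the highest of all pups were WT, and the log2 fold change was -0.08 (SE 0.16, 95% interval -0.43 to 0.27). F2r (ENSMUSG00000048376; chromosome 13, 95601803 to 95618487, minus strand), through which thrombin signals to endothelium, measured 43.7, 53.0, 48.5 and 68.2 CPM in KO pups 1 to 4, against 50.1, 45.6, 68.2 and 67.2 CPM in WT pups 1, 2, 3 and 5. Its log2 fold change was -0.11 (SE 0.16, 95% interval -0.47 to 0.25), an interval that includes both a decrease and an increase.

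**Figure D2:**
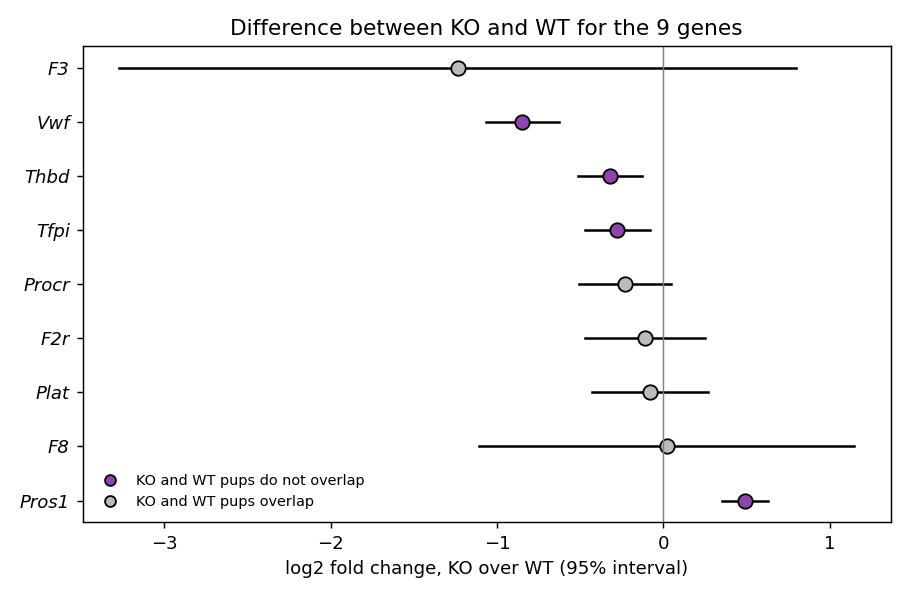
Log2 fold change of each of the 9 genes, KO over WT (horizontal axis), from the edgeR fit over all genes; points are estimates, lines 95% intervals, and filled purple points are genes whose KO and WT pups did not overlap. Vwf at -0.85 and Pros1 at 0.49 have narrow intervals on opposite sides of 0, while the intervals of F3 and F8 span more than 2 units.

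Per length of merged exons, Vwf led the 9 genes in WT pups but not in KO pups. Levels in RPKM (CPM per kilobase of merged exons) averaged 73.0 ± 5.35 for Vwf and 76.0 ± 9.87 for Plat in KO, against 131 ± 17.8 for Vwf and 80.3 ± 18.6 for Plat in WT (mean ± SD, n = 4 each). The Vwf and Plat ranges overlapped in KO pups (67.5 to 79.0 and 61.4 to 82.5 RPKM) but not in WT pups (114 to 151 and 56.4 to 96.6 RPKM). Among 25664 genes ordered by mean RPKM, Vwf held rank 556 in KO and 268 in WT. This order depends on the length used: over exons of protein-coding transcripts alone, Vwf averaged 120 and Plat 188 RPKM in KO, against 216 and 198 RPKM in WT. By that measure their ranges overlapped in WT pups, and in KO pups Vwf (111 to 130 RPKM) lay wholly below Plat (152 to 204 RPKM).

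Below these, the order over merged exons within each genotype reflected the opposite differences of Pros1 and Thbd. In KO pups Pros1 (47.5 to 49.1 RPKM) lay clear of Thbd (28.7 to 31.1 RPKM), whereas in WT pups Pros1 (32.7 to 36.4 RPKM) and Thbd (31.6 to 41.4 RPKM) overlapped. The ratio of Pros1 to Thbd RPKM was 1.57 to 1.71 in KO pups, against 0.834 to 1.10 in WT pups. Over exons of protein-coding transcripts alone, the Pros1 mean (42.8 RPKM) was above that of Thbd (37.5 RPKM) in WT as well. By that measure Procr (30.9 RPKM) came before Thbd (30.0 RPKM) in KO. Over merged exons, Thbd, Procr and Tfpi followed in KO and Procr, Tfpi in WT. Then came F2r at 13.1 to 20.4 RPKM in KO pups and 13.7 to 20.4 RPKM in WT pups. F3 at 0.452 ± 0.681 RPKM in KO and 1.10 ± 0.228 RPKM in WT, and F8 at 0.146 ± 0.0200 RPKM in KO and 0.144 ± 0.0860 RPKM in WT, closed the order and overlapped each other in KO pups.

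**Figure D3:**
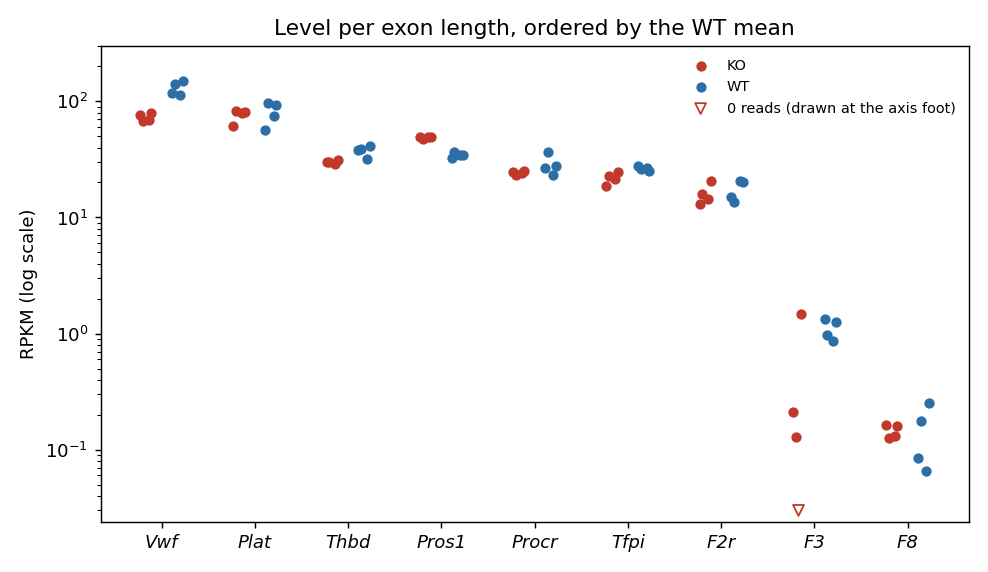
RPKM of the 9 genes in each pup (vertical axis, log scale), ordered from left to right by the WT mean, with KO points left of WT points; the open triangle at the foot marks F3 in KO pup 1, which had 0 reads. Vwf stands above the other genes in WT pups (114 to 151 RPKM) and level with Plat in KO pups (67.5 to 79.0 RPKM), and F3 and F8 lie far below the other 7.

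As a description of the balance between the sides, summed RPKM of the procoagulant Vwf, F8 and F3 was 67.9 to 80.7 in KO pups, against 115 to 153 in WT pups, nearly all of it Vwf. That of the anticoagulant Pros1, Thbd, Procr and Tfpi was 122 to 130 in KO pups, against 116 to 138 in WT pups. The anticoagulant sum therefore overlapped between genotypes, with the higher Pros1 of KO pups set against lower Thbd and Tfpi. Both sums depend on the exon length used: over exons of protein-coding transcripts alone, Vwf averaged 120 RPKM in KO and 216 RPKM in WT. The level of their ratio therefore holds for merged exons only. Over merged exons, the log2 ratio of the procoagulant to the anticoagulant sum was -0.69, -0.86, -0.82 and -0.69 in KO pups 1 to 4. In WT pups 1, 2, 3 and 5 it was -0.06, 0.04, -0.02 and 0.24. Taken instead as mean log2 CPM, which gives the sparse F8 and F3 equal weight, the difference was -3.54 ± 0.81 in KO and -2.52 ± 0.34 in WT (mean ± SD, n = 4 each), and KO pup 4 (-2.50) lay inside the WT range.

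The genes whose pattern over the 8 pups was nearest to that of Vwf were led by the deleted gene itself. Nearness was the root mean square difference of log2 CPM profiles centred on their means, over the 9871 genes whose mean log2 CPM reached 3. Here the Vwf profile itself had a root mean square of 0.44 and the median difference from it was 0.47. Slc2a1 was nearest (0.16), followed by Enpp3, an ectonucleotidase gene, Pgm5, Mark1 and Slc45a4 (0.17 to 0.18). Enpp3 averaged 54.6% of its WT level in KO, Pgm5 59.0%, Mark1 62.3% and Slc45a4 67.1%. Of the other hemostasis genes in the list of 9, Thbd ranked 89 with a difference of 0.27, and Pros1 ranked 9324 with 0.68. When each genotype was centred on its own mean, so that only differences between pups of a genotype counted, 0 of these 5 remained among the nearest 5, Slc2a1 ranked 1373 and Thbd ranked 46. The Vwf profile then had a root mean square of 0.136. Slc2a1 differed from it by 0.140, more than a flat profile would, and Thbd by 0.080.

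**Figure D4:**
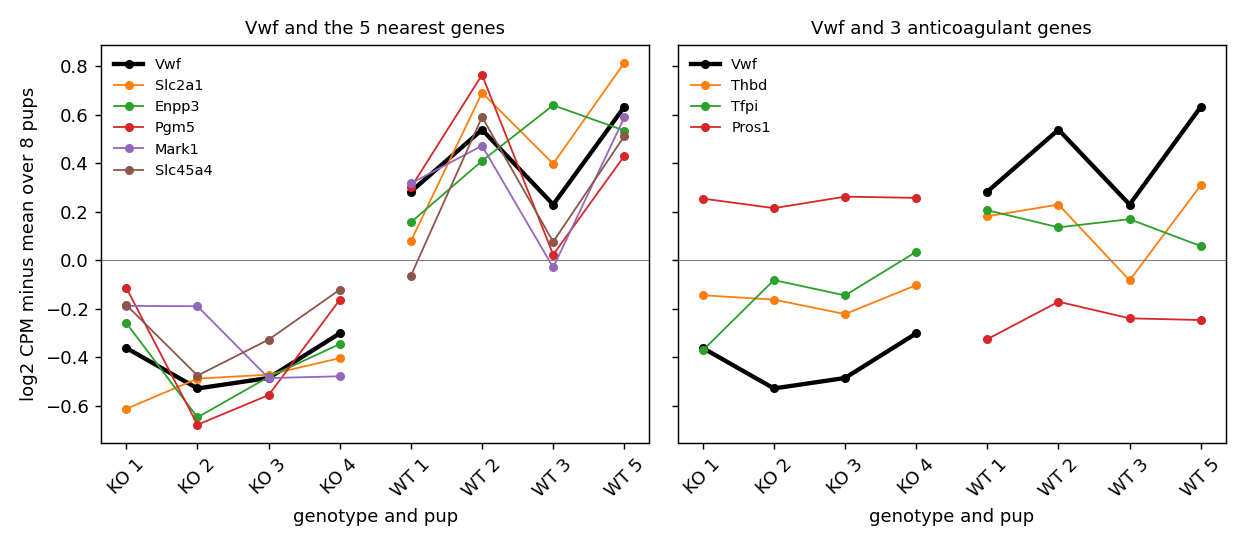
Log2 CPM minus the mean over the 8 pups (vertical axis) for each pup (horizontal axis, KO then WT; lines join pups of a genotype only to guide the eye and imply no order), for Vwf and the 5 nearest genes (left) and for Vwf, Thbd, Tfpi and Pros1 (right). Slc2a1 follows Vwf from low KO to high WT values, and Pros1 shows the reverse, with all KO pups above all WT pups.

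Von Willebrand factor is known to be abundant in venous endothelium. Of 10 venous markers, 0 were called, where 0.113% of all tested genes were called lower. The groups did not overlap for 4, all lower (Nr2f2, Il1r1, Lcn2 and Selp), where 3.43% of all tested genes were lower without overlap, and the median log2 fold change was -0.50. Their summed CPM was 1489 to 1628 in KO pups, against 1472 to 1984 in WT pups, led by Slc38a5 at 746 ± 88.5 CPM in KO and 697 ± 92.1 CPM in WT. The venous transcription factor gene Nr2f2, picked here after its values were seen, measured 47.6, 55.5, 55.2 and 57.6 CPM in KO pups 1 to 4, against 65.5, 92.9, 66.4 and 111 CPM in WT pups 1, 2, 3 and 5. WT pups 2 and 5 were highest for Nr2f2 and for Vwf alike, but also for Slc2a1, Thbd and the arterial markers Gja5 and Hey1. The 10 arterial markers had a median of -0.23, with 0 called and summed CPM of 1015 to 1132 in KO pups, against 1037 to 1351 in WT pups (led by Unc5b). The groups did not overlap for 2 of these 10, Gja5 and Hey1, both lower and named here after their values were seen. The 9 capillary markers had a median of -0.09, with 0 called and 18640 to 22940 CPM in KO pups and 19820 to 26430 CPM in WT pups (led by Spock2). Without overlap, 1 of these 9 was lower and 1 higher. The part of vessel type composition in the Vwf difference was not tested.

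Platelets also carry von Willebrand factor. Of 10 platelet and megakaryocyte markers, 5 passed the filter and 0 were called. Gp1ba was at 0 in all KO pups and in 2 WT pups, with at most 0.0954 CPM, and Gp9 and Gp6 did not exceed 0.167 CPM in any pup, while Gp1bb averaged 7.50 ± 2.70 CPM in KO and 10.3 ± 0.835 CPM in WT. Gp1bb shares 1902 exon bases with Sept5 on the same strand, so its counts are uncertain as a measure of platelet RNA. The sum of the 10 platelet markers, 43.1 to 109 CPM in KO pups and 52.5 to 85.9 CPM in WT pups, was mostly Pf4, at 69.2 ± 29.6 CPM in KO and 57.3 ± 14.5 CPM in WT. The part of platelet RNA in the Vwf values was not tested. The summed CPM of mural markers was 1760 to 2652 in KO pups, against 479 to 2671 in WT pups, led by Rgs5, and that of fibroblast markers 102 to 251 in KO pups, against 115 to 256 in WT pups, led by Col3a1. The sum of neuronal markers (led by Map2) was 19.2 to 28.7 CPM in KO pups and 11.3 to 25.1 CPM in WT pups. That of oligodendrocyte lineage markers (Mbp) was 64.6 to 148 CPM in KO pups and 53.4 to 146 CPM in WT pups, and that of erythrocyte markers (Hbb-bs) 569 to 1001 CPM in KO pups and 522 to 1630 CPM in WT pups.

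Around the 9 genes, 99 further hemostasis genes were listed by role, of which 75 passed the filter. In edgeR's quasi-likelihood test 0 of the 75 were called, with 13 (17.3%) at an unadjusted p under 0.05, against 11.1% of all tested genes. DESeq2 called 3 lower, Edn1 among them, where it called 193 of all 14154 tested genes lower, and limma-voom called 0. The groups did not overlap for 8 of them (10.7%, against 7.19% of all tested genes), 6 of them lower in KO and 2 higher. The median log2 fold change of the 75 was -0.05, and 41 were below 0, against 49.7% of all tested genes.

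Of the 8 tested genes of the plasminogen system, 0 were called and the median log2 fold change was -0.11. Plau, the urokinase gene, had a log2 fold change of 0.87 (SE 0.33, adjusted p 0.351 in edgeR), Anxa2, a surface receptor for plasminogen and its activator, -0.12, and Lrp1, a clearance receptor for tissue plasminogen activator, 0.06.

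Weibel-Palade body genes showed 0 calls among 24 tested members and a median log2 fold change of -0.10. Edn1, the vasoconstrictor endothelin 1, averaged 184 ± 16.7 CPM in KO and 271 ± 64.9 CPM in WT (log2 fold change -0.55, SE 0.14, adjusted p 0.156 in edgeR), with no overlap. Selp, the P-selectin gene stored beside von Willebrand factor and picked after its values were seen, was low throughout, at 0 to 0.912 CPM in KO pups and 0.985 to 1.67 CPM in WT pups. The disulfide isomerase gene P4hb and the vesicle protein gene Vamp3, the most abundant of the list with Edn1, measured 0.05 and 0.06 on the log2 scale.

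The coagulation factors and their cofactors, with 10 tested members, had a median log2 fold change of -0.003 and 0 calls. Lman1, the cargo receptor that carries factors V and VIII out of the endoplasmic reticulum, was even across pups at 107 ± 1.34 CPM in KO and 104 ± 4.35 CPM in WT (mean ± SD, n = 4 each). F13a1, the factor XIII subunit known from macrophages, averaged 326 ± 114 CPM in KO and 225 ± 47.5 CPM in WT (0.53, adjusted p 0.414 in edgeR), and was highest in KO pup 3, which also had the highest macrophage marker sum. The scramblase gene Ano6 measured 0.07, and Vkorc1l1, of vitamin K recycling, -0.21 (adjusted p 0.418) without overlap.

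The other anticoagulant genes, 8 tested, had a median log2 fold change of 0.20 with 0 calls. Gas6, a relative of protein S that activates the same TAM receptors, averaged 244 ± 38.5 CPM in KO and 191 ± 15.2 CPM in WT and was higher in every KO pup (log2 fold change 0.35, SE 0.11, adjusted p 0.242 in edgeR). Serpine2, the thrombin inhibitor protease nexin 1, averaged 292 ± 42.5 CPM in KO and 183 ± 63.5 CPM in WT (0.67, adjusted p 0.237), with WT pup 5 inside the KO range. Gas6, like Gna12 below, shares exon bases with a gene on the opposite strand, and how strand was handled in counting is not given, so its counts are uncertain. Anxa5, the phosphatidylserine-binding annexin, measured 0.17 (adjusted p 0.492).

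Receptors and regulators gave 0 calls as well. The 6 tested genes of protease-activated receptors and their G proteins had a median log2 fold change of -0.02, with Gna12, Gna11 and Gnaq at 0.01, 0.06 and -0.05 and F2rl1, the PAR2 gene, at 0.777 ± 0.526 CPM in KO and 1.48 ± 0.545 CPM in WT (adjusted p 0.599 in edgeR). The 5 tested clearance receptors for von Willebrand factor were all low, with a median of 0.16, and Stab2, Asgr2 and Scara5 measured 0.16, 0.25 and -1.41. Of 14 transcription factors with a known action on Vwf or Thbd, 0 were called and the median was -0.13. Ets1 measured 0.06, Klf2 -0.22, Klf6 -0.14, Nfya -0.31 (adjusted p 0.287) and Foxo1 -0.29 (adjusted p 0.237), the last without overlap at 122 to 147 CPM in KO pups and 151 to 189 CPM in WT pups.

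**Figure D5:**
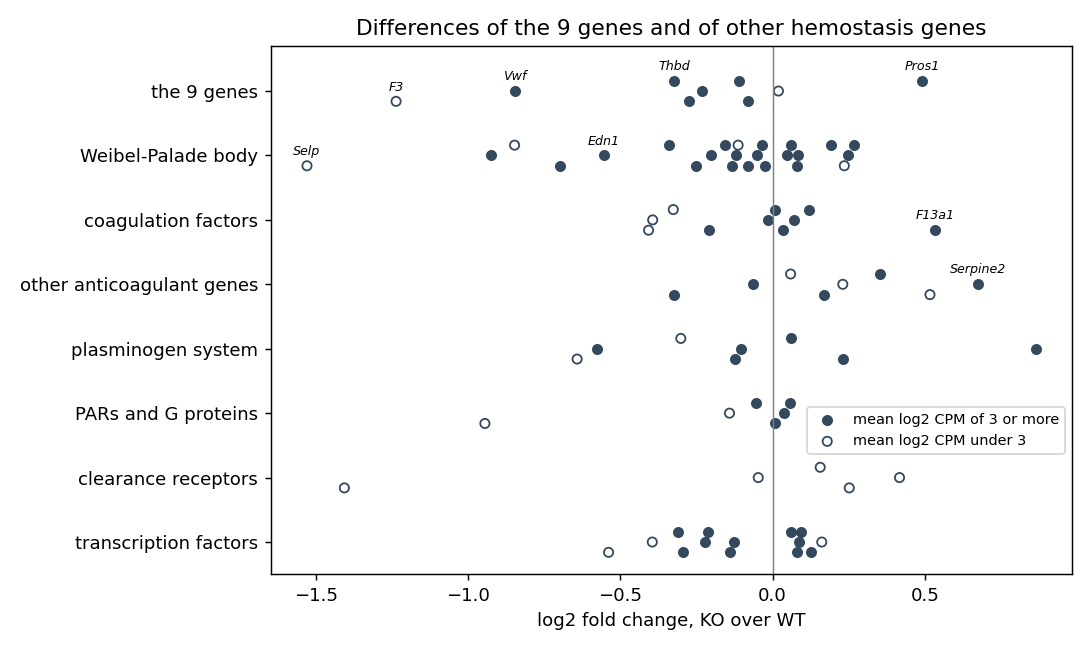
Log2 fold change, KO over WT (horizontal axis), of the 9 genes (top row) and of the 75 other tested hemostasis genes by role (rows below; PARs are protease-activated receptors); each point is a gene, moved up or down within its row only for legibility, and open points have a mean log2 CPM under 3. Most filled points lie within 0.35 of 0 on either side, with Vwf at -0.85 and Edn1 at -0.55 to the left and Pros1 at 0.49, Serpine2 at 0.67 and Plau at 0.87 to the right.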

How the data were processed

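Sorted brain endothelial cells of 4 KO and 4 WT pups were profiled by RNA-seq. The authors deposited raw read counts per gene; per the labels' protocols the libraries came from a stranded kit. How strand was handled in counting, and with which annotation release, is not given in the sources used here. Symbols and exon lengths came from GRCm38 (GENCODE M21).

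Genes with enough counts for edgeR's filterByExpr were kept (14154 of 25700). TMM-scaled CPM was computed, and KO was compared with WT by the quasi-likelihood test of edgeR 4.0.16 over all genes, with Benjamini-Hochberg adjustment at 0.05. DESeq2 1.42.0, limma-voom (limma 3.58.1), other scalings, no filter, cage terms and leaving out pups were alternatives. The edgeR procedure was tested on simulated data. Depth was 20858070 to 114007737 counts, and 3 counts correspond to 0.0269 to 0.144 CPM, for counting error only. P-values set the difference between genotypes against the spread between these pups, and in the main fit they do not account for cage.

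The members and lists were chosen with earlier results of these data known. Named are Slc2a1, the 9 genes, the 3 most abundant genes and the 2 with the smallest p-values of each pathway list, the most abundant gene of each marker list and the 5 nearest to Vwf. Nr2f2, Il1r1, Lcn2, Selp, Gja5 and Hey1 were named after their values were seen. Some listed genes that this rule names are not reported here, though the counts over the lists include them.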

Additional observations from a re-analysis of the deposited data

Results flagged for a closer look

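In 3 of 70 groups of 4 pups, 1 pup stood apart from the other 3 by Dixon's criterion; chance gives about 1 in 20. F3 was 3.70 CPM in KO pup 4, against 0 to 0.539 CPM in the other KO pups. Lrp1 was 54.9 CPM in KO pup 1, against 79.1 to 81.6 CPM in the other KO pups. Anxa5 was 255 CPM in WT pup 1, against 221 to 226 CPM in the other WT pups.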

How the results depend on the processing

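Over all genes, 39 were called higher and 16 lower. Without a filter 38 were lower, with DESeq2 158 were higher and 193 lower, with the cage term from titles 10 and 6, with that from the labels in the tables there were 10 and 0, among the pups of 1 cage by title 10 were higher, and without KO pup 1 and WT pup 2, libraries known to stand apart, 26 were lower. Leaving out each pup gave 25 to 60 higher and 6 to 27 lower. Of the other hemostasis genes, 1 was called lower without a filter, 3 with DESeq2, and 0 to 1 on leaving out each pup. Vwf was called in 16 of 18 alternatives and Pros1 in 14 of 18. The log2 fold change of Vwf was -1.05 with the cage term from titles and within that cage, -0.65 with the labels in the tables, and -0.91 to -0.78 on leaving out each pup. That of Pros1 was 0.49 with both cage terms and within the cage. F8 measured -0.78 with the titles and within that cage and 1.15 with the labels in the tables, Thbd -0.47 and -0.074, and Procr 0.066 with those labels. F3 measured -3.24 to -0.83 on leaving out each pup. Over protein-coding exons, WT levels were 216 RPKM for Vwf, 198 for Plat, 42.8 for Pros1, 36.3 for Procr and 1.49 for F3. With each genotype centred, 0 of the 5 genes nearest to Vwf were shared. The cause of these shifts was not tested, and each cage fit rests on 1 WT pup.

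Pups with the same number did not deviate together (r of -0.03, 0.03 and -0.07 over 14154 genes), so they share only a number. With the pup number as a replicate block, 11 genes were called higher and 0 lower, Vwf measured -0.81 and Pros1 0.49, neither called, and F3 -3.41. KO pup 4 and WT pup 5 have no partner by number, so this fit rests on pups 1 to 3 of each genotype.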

Other observations

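Of the listed hemostasis genes, 12 had 0 counts in every library, which allows up to 0.144 CPM in the shallowest. They were the plasma factors F12, F13b, Fga, Fgb, Fgg and Kng1, the anticoagulant genes Proc, Serpina10 and Serpina5, and Cpb2, Adamts13 and Clec4f. Proc encodes protein C itself, whose receptor (Procr) and activating cofactor (Thbd) were among the well-detected genes.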
